A study of Mus musculus with 14 samples.

Results

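The genes described here are Trim71, the 2 Lin28 genes and 7 genes of the microRNA pathway, Drosha, Dgcr8, Dicer1, Ago1, Ago2, Tnrc6a and Tnrc6b, 10 genes chosen by symbol. All 10 were found in the RNA-seq table of 41204 genes, where each was among the 15430 genes tested, and in the table of RNA pulled down with Trim71, which lists 14054 transcripts. Mouse embryonic stem cells (ESCs) of a C57BL/6(F) x 129/sv(M) cross, labelled with a developmental stage of 3.5 days in every group, were compared with Trincr1-/- ESCs, in which CRISPR had removed exons of Trincr1, a long noncoding RNA listed as Gm2694 that binds the TRIM71 protein. Both were grown in 2i + LIF, which holds 1.0 μM of the MEK inhibitor PD0325901, 3.0 μM of the GSK3 inhibitor CHIR99021 and 1000 units per ml of leukemia inhibitory factor (LIF), or were moved after 24 h to PD + LIF, without CHIR99021, for 4 days. Each of the 4 groups has 2 samples, and the labels do not say whether the 2 Trincr1-/- samples are separate clones or cultures, nor the same of wild type, so p-values measure only the spread between these samples, which may be technical. For the pulldown, ESCs in 2i + LIF were UV-crosslinked, 1 part in 40 of the lysate was kept as input, and lysate of cells that overexpressed 3XFLAG-Trim71 was immunoprecipitated (IP) with a FLAG antibody. The labels do not state whether the input is of the same cells.

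TRIM71 is a TRIM-NHL protein that binds RNA and carries a RING domain of ubiquitin ligases, and its mRNA, like those of Lin28a and Lin28b, is a classical target of the let-7 microRNAs. The LIN28 proteins bind let-7 precursors and keep them from being made into mature let-7, so that let-7 and these genes restrain each other during differentiation. Most microRNAs are cut from their primary transcript by DROSHA with its partner DGCR8, cut again by DICER1, loaded into an Argonaute protein such as AGO1 or AGO2, and act through TNRC6 (GW182) proteins, which recruit deadenylases to the target mRNA.

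The microRNA sequences that define these relations are printed because the sites in the members' mRNAs are read against them. MicroRNAs themselves were not measured: none of the 2001 microRNA entries of the poly(A) RNA-seq table reached 0.001 FPKM in any sample. In the RefSeq table (GRCm38.p6), not searched on every chromosome, at least 11 mature microRNAs carry the let-7 seed, bases 2 to 8 in capitals. Of these, 4 are shown, miR-98 among those that go by another name.
let-7a-5p: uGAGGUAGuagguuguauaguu
let-7g-5p: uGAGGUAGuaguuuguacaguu
let-7i-5p: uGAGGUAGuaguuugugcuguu
miR-98-5p: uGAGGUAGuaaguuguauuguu
The ESC-enriched miR-290 and miR-302 clusters share another seed, found in at least 5 mature entries, of which 3 are shown.
miR-294-3p: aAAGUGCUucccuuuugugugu
miR-295-3p: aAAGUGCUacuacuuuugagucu
miR-302b-3p: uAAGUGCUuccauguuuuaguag
The complements of these seeds, CTACCTC and AGCACTT, were searched in the longest annotated 3′UTR of each gene (GENCODE vM1, sense strand only). CTACCTC was present in 9.08% and AGCACTT in 13.7% of 19381 3′UTRs.

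The let-7 seed match stood in the 3′UTRs of 4 of the 10 genes, Trim71 (2 matches), Lin28a (2), Lin28b (4) and Ago2 (1). Both matches of Trim71 and both of Lin28a, and the first of Lin28b, are followed by an A, the letter that lengthens a seed match by 1 position. These 5 sites are shown with 8 bases on each side and the match in capitals (NCBIM37, minus strand, all in a single exon).
Trim71, first match, chr9:114421583-114421605: cctaagtcCTACCTCagcttaaa
Trim71, second match, chr9:114421487-114421509: atttctatCTACCTCaactcttt
Lin28a, first match, chr4:133561097-133561119: ctgttgaaCTACCTCatttttgc
Lin28a, second match, chr4:133560459-133560481: ccacaaacCTACCTCactgtgtt
Lin28b, first match, chr10:45100821-45100843: cgggaagtCTACCTCatgcaagc
A longer 3′UTR holds more matches, so each count was set beside 3′UTRs within 1.2 times the same length. At least 2 matches were found in 0.873% of 2406 3′UTRs about as long as that of Trim71 (1370 bases) and in 2.31% of 1903 about as long as that of Lin28a (2775 bases). At least 4 matches were found in 0.350% of 856 3′UTRs about as long as that of Lin28b (4445 bases). The match of Ago2 has no A after it, and 29.0% of 525 3′UTRs about as long (5283 bases) hold 1 or more. AGCACTT was found once in Lin28b and 2 times in Tnrc6b, whose 3′UTR is 11610 bases long. The letters of neither match were found in the annotated 3′UTRs of Ago1, Dicer1, Drosha, Dgcr8 or Tnrc6a.

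The RNA-seq samples had FPKM sums from 497115 to 519651 and an estimated 10250000 to 14100000 fragments each, from the steps that single fragments leave among low values. At that depth the genes had an estimated 485 fragments or more in every sample except Lin28b, which had 40.6 in its lowest sample, a counting error of 15.7% against 4.54% or less for the others. These estimates take the longest annotated transcript of each gene. Where a shorter one is expressed, the fragments are fewer and the counting errors larger. Gm2694, the targeted transcript, was listed at 0.0754 and 0 FPKM in Trincr1-/- ESCs in 2i + LIF and at 1.38 and 0.746 FPKM in PD + LIF, against 5.70 and 9.45 FPKM and 6.18 and 6.56 FPKM in wild type (-3.01 and -1.85 on the log2 scale, adjusted p = 0.0032 and 0.0053 by limma). Of 7 ESC markers, none passed the test between genotypes in 2i + LIF, while in PD + LIF 5 were lower in Trincr1-/- ESCs, their summed level being 914 to 947 FPKM against 1116 to 1150 FPKM in wild type and 1771 to 1808 FPKM in 2i + LIF. Of 3 neural markers, 1 was called higher in Trincr1-/- ESCs in PD + LIF. Their summed level was 37.5 to 37.9 FPKM in Trincr1-/- and 27.7 to 30.2 FPKM in wild type in PD + LIF, with 6.72 to 8.11 FPKM in 2i + LIF. That of 4 trophoblast markers was 143 to 148 FPKM against 63.6 to 73.5 FPKM in PD + LIF, with 14.9 to 17.0 FPKM in 2i + LIF. Krt8 made up nearly all of the trophoblast sums in PD + LIF, and Cdx2 and Elf5, which define trophoblast, were at 0.166 FPKM or less in these 4 samples. In 2i + LIF Cdx2 was at 2.60 and 3.43 FPKM in Trincr1-/- ESCs and at 0.727 and 0.766 FPKM in wild type. Eomes was lower in Trincr1-/- ESCs in both media without overlap. In 2i + LIF it was at 1.88 and 2.06 FPKM against 3.16 and 2.93 FPKM in wild type. In PD + LIF it was at 0.813 and 0.953 FPKM against 1.46 and 1.63 FPKM. Of the 3 trophoblast markers tested, 1 was called higher in Trincr1-/- ESCs in each medium and none was called lower. The sum of 4 fibroblast markers was 5.21 to 6.17 FPKM in Trincr1-/- and 3.68 to 4.46 FPKM in wild type in PD + LIF, with 0.467 to 1.12 FPKM in 2i + LIF, and 1 of the 3 tested was called higher in Trincr1-/- ESCs in PD + LIF, Col1a1, at 1.95 and 1.82 FPKM against 0.373 and 0.446 FPKM. The sum of 4 primitive endoderm markers was 3.40 FPKM or less in every sample. The part of these markers in the differences between genotypes or media, given below, was not tested. A lower share of cells that express a gene and less of its RNA per cell cannot be told apart in bulk RNA.

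In wild-type ESCs in 2i + LIF, FPKM values, which are per length of transcript and can be compared between genes, were highest for Drosha, the nuclease of the first cut. Its mean was 65.5 ± 1.04 FPKM (SD, n = 2), followed by Lin28a with 60.1 ± 1.97 and Trim71 with 32.9 ± 1.59 FPKM. Ago2 (24.9 FPKM), Dgcr8 (22.9 FPKM), Ago1 (20.3 FPKM), Tnrc6a (12.7 FPKM) and Dicer1 (12.6 FPKM) came next, and Tnrc6b (2.90 FPKM) and Lin28b (2.02 FPKM) were lowest. The samples of neighbouring genes in this order did not overlap, although Tnrc6a and Dicer1 lay within 0.15 FPKM of each other. The ranges of neighbours overlapped for Ago2 and Dgcr8 and for Dicer1 and Tnrc6a in Trincr1-/- ESCs in 2i + LIF, and for Ago1 and Dicer1 in Trincr1-/- ESCs in PD + LIF. Lin28a was the highest of the 10 in every group but wild type in 2i + LIF.

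**Figure D1:**
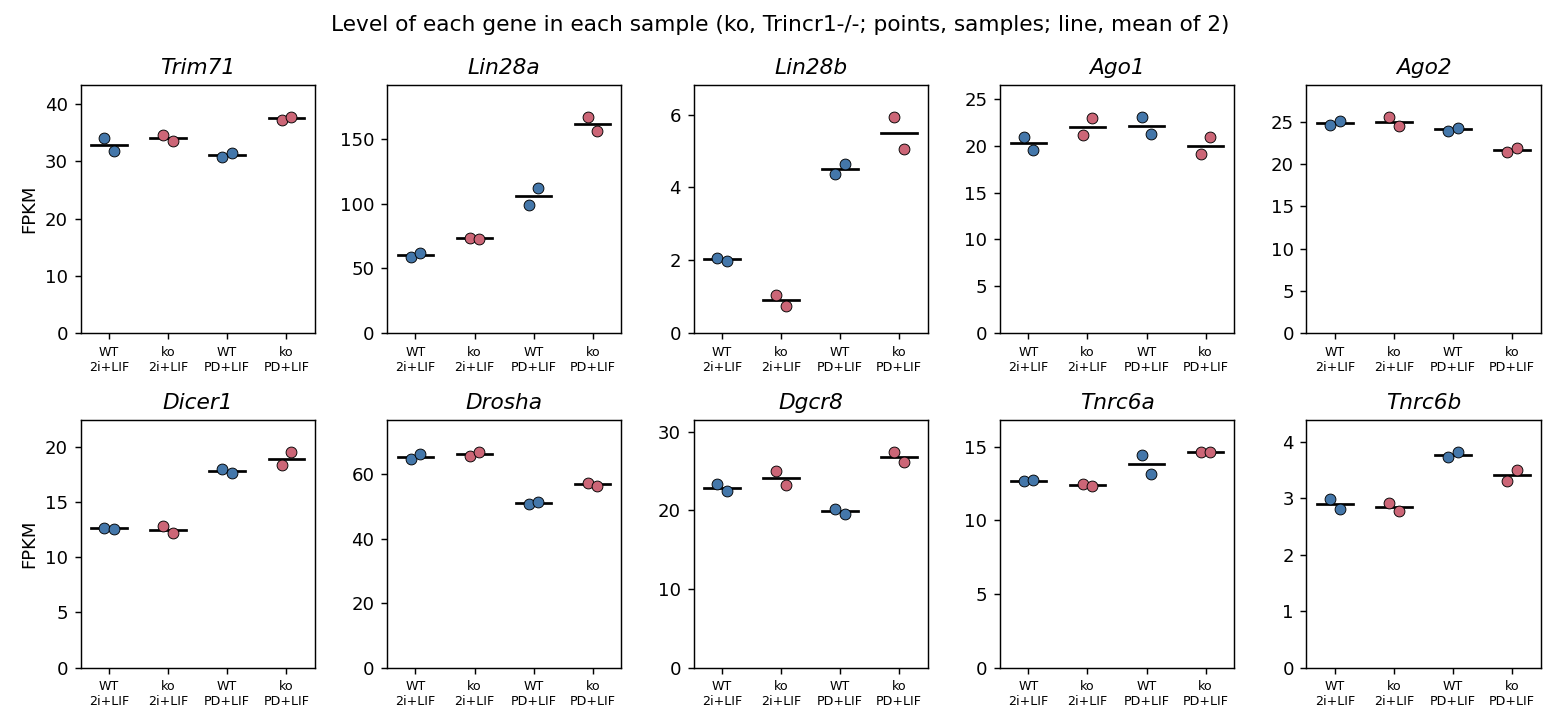
FPKM of the 10 genes in each of the 8 RNA-seq samples, 1 panel a gene with its own axis from 0 (blue, wild type; red, Trincr1-/-; points, samples; line, mean of 2). Trim71 stayed between 30.8 and 37.7 FPKM throughout, while Lin28a ran from 58.7 to 166.7 FPKM and Lin28b from 0.732 to 5.92 FPKM.

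The first comparison asks whether loss of Trincr1 was accompanied by other levels of these mRNAs in 2i + LIF. None of the 10 genes passed the test, limma on log2(FPKM + 1) with Benjamini-Hochberg adjustment over all 15430 genes and a threshold of 0.05, under which 1.21% of all genes were called, 0.350% higher and 0.855% lower. At an unadjusted p under 0.05 there were 2 of the 10, Lin28a and Lin28b, where 14.6% of all genes had one. The median difference of the 10 was 0.012 on the log2 scale, beside 0.0021 over all genes. Trim71 was at 34.0 and 31.8 FPKM in wild type and at 34.7 and 33.6 FPKM in Trincr1-/- ESCs. These values interleave, and the difference of 0.052 had a 95% interval from -0.074 to 0.18 (adjusted p = 0.74). Of the others, Ago1, Ago2, Dicer1, Drosha, Dgcr8, Tnrc6a and Tnrc6b differed by -0.029 to 0.12 with adjusted p from 0.57 to 0.99.

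Lin28b, the LIN28 paralog with the lowest level, had the largest difference of the 10 in 2i + LIF. It was at 2.07 and 1.98 FPKM in wild type and at 1.06 and 0.732 FPKM in Trincr1-/- ESCs, so that both Trincr1-/- samples lay below both wild-type ones. The mean was 0.442 times that of wild type, a difference of -0.68 ± 0.13 (SE) on the log2(FPKM + 1) scale, which understates the change of a low gene (95% interval -0.99 to -0.37, adjusted p = 0.064 by limma). It passed with a pseudocount of 0.1 FPKM (-1.11, adjusted p = 0.0497) and by a fold rule without a test (a ratio above 2 and an average of at least 1 FPKM), which 1.28% of all genes met in this direction and 0.687% in the other. Lin28a went the other way, with 58.7 and 61.5 FPKM in wild type and 73.7 and 72.9 FPKM in Trincr1-/- ESCs, and also without overlap. Its difference of 0.28 ± 0.066 did not pass (adjusted p = 0.12). Samples of the 2 genotypes did not overlap, with Trincr1-/- higher, for 22.0% of all genes, and lower for 22.4%.

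In PD + LIF, where only the MEK inhibitor and LIF remain, 3 of the 10 genes were higher in Trincr1-/- ESCs and none was lower, while 12.1% of all genes were called, 6.29% higher and 5.77% lower. The 3 were Lin28a, Dgcr8 and Trim71. The median difference of the 10 was 0.12, beside 0.010 over all genes. The samples of the 2 genotypes did not overlap for any of the 10 genes, 7 being higher and 3 lower in Trincr1-/- ESCs, where 30.2% of all genes were higher and 27.5% lower without overlap. All 3 calls were lost when the 4 samples in PD + LIF were fitted alone, where the spread rests on 2 degrees of freedom and 316 genes in all were called, with 5 of the 10 and 26.8% of all genes at an unadjusted p under 0.05. By the fold rule none of the 10 was called, against 1.45% of all genes higher and 1.74% lower.

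In PD + LIF, Lin28a was at 99.0 and 112.3 FPKM in wild type and at 166.7 and 156.0 FPKM in Trincr1-/- ESCs. Both Trincr1-/- samples lay above both wild-type ones, and the mean was 1.53 times as high, a difference of 0.61 ± 0.066 (SE; 95% interval 0.45 to 0.76, adjusted p = 0.0037 by limma). Leaving out any 1 sample kept this call, and the fit of PD + LIF alone gave an adjusted p of 0.0503. Part of its transcript, 16.3% and none of it coding, has a near-identical copy elsewhere in the genome (at least 95% identity over 100 bases or more, NCBIM37), and Gm13061, on the other strand of its locus, was at 0.556 FPKM or less.

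Dgcr8, the RNA-binding partner of DROSHA, was at 20.2 and 19.6 FPKM in wild type and at 27.4 and 26.2 FPKM in Trincr1-/- ESCs in PD + LIF. The groups lay well apart, with a mean 1.35 times as high in Trincr1-/- ESCs and a difference of 0.41 ± 0.062 (95% interval 0.26 to 0.56, adjusted p = 0.0093 by limma). Without wild-type replicate 1, wild-type replicate 2 or Trincr1-/- replicate 1 of PD + LIF the adjusted p became 0.051, 0.054 and 0.072. Of its transcript 19.8%, including 311 coding bases, has a near-identical copy elsewhere, and it overlaps Trmt2a on the other strand, which was at 17.8 and 16.8 FPKM in wild type and at 25.6 and 21.3 FPKM in Trincr1-/- ESCs. Reads of the 2 strands cannot be told apart where the library does not keep strand, which is not given in the sources used here.

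Trim71 itself was at 30.8 and 31.5 FPKM in wild type and at 37.3 and 37.7 FPKM in Trincr1-/- ESCs in PD + LIF. The samples within a group differed by less than 1 FPKM and the groups by about 6 FPKM, with a mean 20.3% higher in Trincr1-/- ESCs. The difference was 0.26 ± 0.054 (95% interval 0.13 to 0.39, adjusted p = 0.026 by limma). It did not pass without a variance trend (0.065), nor when any 1 of the 4 samples in PD + LIF was left out (0.081 to 0.110). No near-identical copy of its transcript and no overlapping gene was found. By RT-qPCR the study reported Trim71 mRNA as unaltered in Trincr1-/- ESCs, without naming the medium of that assay. It reported the same of the protein in 2i + LIF. Shcbp1, whose protein the study links to TRIM71, had a difference of 0.0047 (adjusted p = 1.00) in 2i + LIF and of 0.31 (adjusted p = 0.045) in PD + LIF. Whether this call holds under other settings of the fit was not checked. The study found the SHCBP1 protein higher in Trincr1-/- ESCs, but not its mRNA by RT-qPCR.

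Among the genes that did not pass in PD + LIF, Drosha came nearest, with 50.9 and 51.3 FPKM in wild type and 57.3 and 56.6 FPKM in Trincr1-/- ESCs. Its difference was 0.15 ± 0.041 (adjusted p = 0.054), and it passed where samples were scaled to equal medians (0.044) or genes were not filtered (0.037). Lin28b was at 4.37 and 4.63 FPKM in wild type and at 5.92 and 5.05 FPKM in Trincr1-/- ESCs, a difference of 0.24 ± 0.13 (adjusted p = 0.29). Dicer1 (0.084), Tnrc6a (0.080), Tnrc6b (-0.12), Ago1 (-0.14) and Ago2 (-0.15) had adjusted p from 0.12 to 0.50. Their 95% intervals lay within -0.35 and 0.24.

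**Figure D2:**
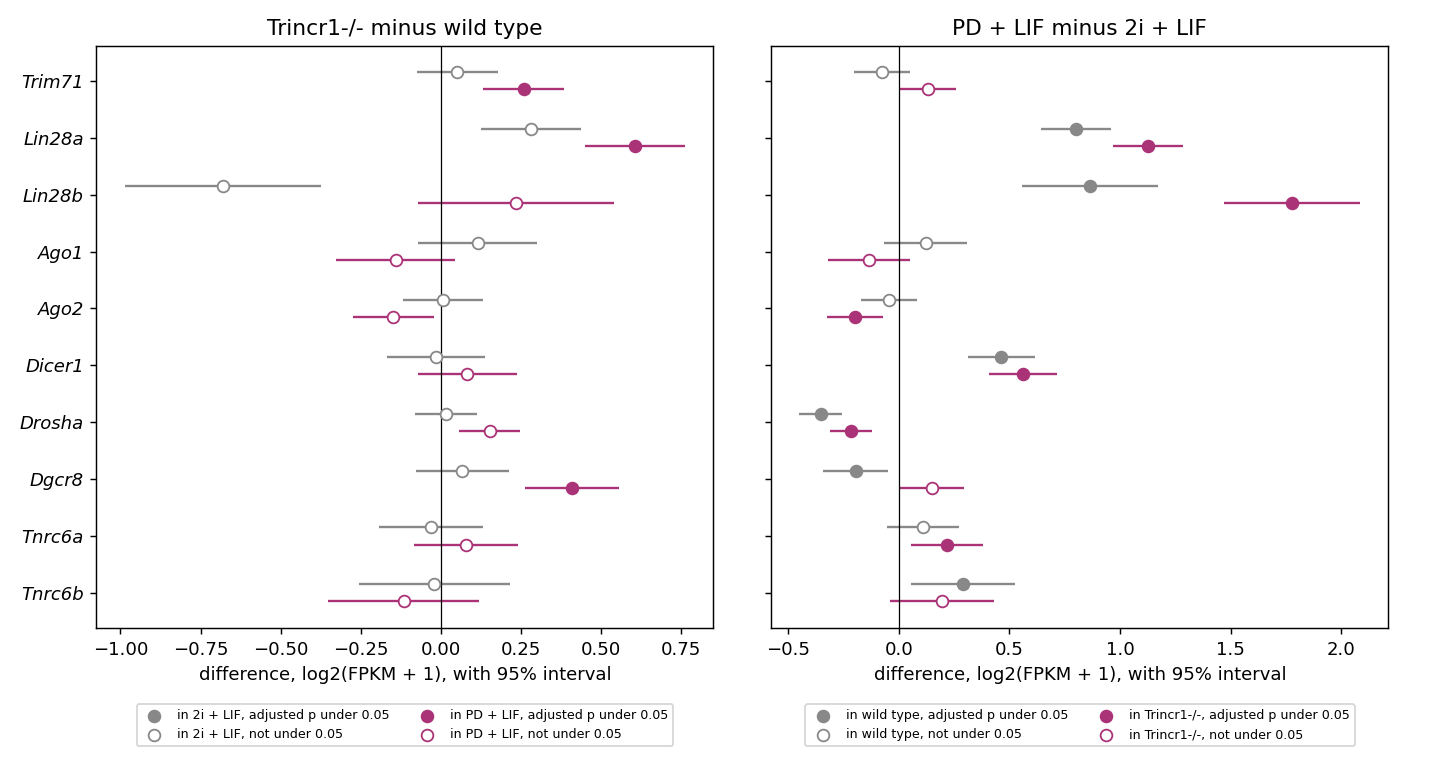
Differences in log2(FPKM + 1) with 95% intervals from limma for the 10 genes, on the left Trincr1-/- minus wild type in each medium and on the right PD + LIF minus 2i + LIF in each genotype (filled points, adjusted p under 0.05). In PD + LIF, Trim71, Lin28a and Dgcr8 lie above 0 at 0.26, 0.61 and 0.41, and both Lin28 genes and Dicer1 lie above 0 for the medium in both genotypes.

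Whether the difference between genotypes itself changed with the medium was tested as an interaction. None of the 10 genes passed, against 1.81% of all genes, 0.992% higher and 0.817% lower, and 5 of the 10 had an unadjusted p under 0.05, as did 19.0% of all genes. Lin28b came nearest, with -0.68 in 2i + LIF and 0.24 in PD + LIF, a difference of 0.92 ± 0.18 (95% interval 0.48 to 1.35, adjusted p = 0.061), which passed when genes under a mean of 1 FPKM were left out (0.0496). Dgcr8 (0.34, adjusted p = 0.10), Lin28a (0.33, adjusted p = 0.13) and Trim71 (0.21, adjusted p = 0.20) followed. The calls of Lin28a, Dgcr8 and Trim71 in PD + LIF are therefore not shown to be particular to that medium.

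The change of medium moved more of these genes. From 2i + LIF to PD + LIF, 6 of the 10 changed in wild type, 4 higher and 2 lower, where 52.2% of all genes were called, 30.9% higher and 21.3% lower, and 6 changed in Trincr1-/- ESCs, again 4 and 2, where 50.0% of all genes were called, 29.6% higher and 20.3% lower. The share of the 10 called, 60% in each genotype, was near that of all genes, and these comparisons use the same 8 samples as those between genotypes. The shares depend on the scaling. Setting samples to equal medians lowers every difference by 0.21 in wild type and 0.20 in Trincr1-/- ESCs, and turned 4765 genes higher and 3283 lower in wild type into 3047 and 5297, and 4572 and 3136 in Trincr1-/- ESCs into 2976 and 5188.

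Both Lin28 genes rose, and did so under every alternative. With the medium all 3 neural markers rose in both genotypes, and of the 7 ESC markers 6 fell in each and 1 rose in wild type. In wild type Lin28a went from 58.7 and 61.5 to 99.0 and 112.3 FPKM, 1.76 times as high (0.80 ± 0.066, adjusted p = 8.3e-05 by limma), and in Trincr1-/- ESCs from 73.7 and 72.9 to 166.7 and 156.0 FPKM, 2.2 times as high (1.13, adjusted p = 1.8e-05). Lin28b went from 2.07 and 1.98 to 4.37 and 4.63 FPKM in wild type, 2.22 times as high (0.86 ± 0.13, adjusted p = 0.0013), and from 1.06 and 0.732 to 5.92 and 5.05 FPKM in Trincr1-/- ESCs, 6.14 times as high (1.78, adjusted p = 4.5e-05). Lin28b, the lowest of the 10 in 2i + LIF, thus ranked above Tnrc6b in PD + LIF in both genotypes.

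Of the nucleases, Dicer1 rose and Drosha fell in both genotypes, again under every alternative. Dicer1 went from 12.7 and 12.6 to 18.0 and 17.6 FPKM in wild type (0.46 ± 0.065, adjusted p = 0.00090 by limma) and from 12.8 and 12.2 to 18.3 and 19.5 FPKM in Trincr1-/- ESCs (0.56, adjusted p = 0.00038). Drosha went from 64.8 and 66.3 to 50.9 and 51.3 FPKM in wild type (-0.35 ± 0.041, adjusted p = 0.00038) and from 65.6 and 66.9 to 57.3 and 56.6 FPKM in Trincr1-/- ESCs (-0.22, adjusted p = 0.0039). Dicer1 made up part of the distance to Drosha, their levels being 12.6 and 65.5 FPKM in wild type in 2i + LIF and 17.8 and 51.1 FPKM in PD + LIF.

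Dgcr8 fell in wild type, from 23.4 and 22.5 to 20.2 and 19.6 FPKM (-0.19 ± 0.062, adjusted p = 0.034), a call lost without a variance trend (0.061) and when any 1 of the 4 wild-type samples was left out (0.069 to 0.14). In Trincr1-/- ESCs it was at 25.0 and 23.2 FPKM in 2i + LIF and at 27.4 and 26.2 FPKM in PD + LIF, a difference of 0.15 (adjusted p = 0.085). Trim71 did not pass in either genotype, with -0.075 in wild type (adjusted p = 0.28) and 0.13 in Trincr1-/- ESCs (adjusted p = 0.076), although with equal medians it was lower in PD + LIF in wild type (-0.29, adjusted p = 0.0036).

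Of the effector genes, which load microRNAs or recruit deadenylases, none rose or fell in both genotypes. Ago1, at 19.1 to 23.0 FPKM in all 8 samples, passed in neither genotype, and Ago2 fell in Trincr1-/- ESCs, from 25.6 and 24.5 to 21.5 and 21.9 FPKM (-0.20 ± 0.053, adjusted p = 0.018), with -0.043 in wild type (adjusted p = 0.54) and an interaction that did not pass (-0.15, adjusted p = 0.32). The Ago2 call was lost without Trincr1-/- replicate 1 of 2i + LIF (0.081) or either Trincr1-/- sample of PD + LIF (0.070 and 0.051). With equal medians Ago1 was lower in Trincr1-/- ESCs (-0.34, adjusted p = 0.010) and Ago2 lower in wild type (-0.26, adjusted p = 0.0060). Tnrc6b was at 2.99 and 2.82 FPKM in 2i + LIF and at 3.73 and 3.82 FPKM in PD + LIF in wild type (0.29 ± 0.10, adjusted p = 0.043). Tnrc6a was at 12.5 and 12.4 FPKM and at 14.6 and 14.6 FPKM in Trincr1-/- ESCs (0.22 ± 0.069, adjusted p = 0.034). With equal medians both calls were lost, the differences being 0.079 and 0.014, and 12 of 16 alternatives for Tnrc6b and 9 of 16 for Tnrc6a left them above the threshold.

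Around these 10 genes, 8 lists of other pathway genes hold 56 genes, of which 53 were tested (Ago4, Egr1 and Hoxa5 were too low). In 2i + LIF 1 of the 53 differed between genotypes, 1.89% against 1.21% of all genes, the let-7 target mRNA Igf2bp2, which was higher (0.39, adjusted p = 0.012), and 6 of 16 alternatives left it above the threshold. In PD + LIF 8 of the 53 differed, 15.1% against 12.1% of all genes, 6 higher and 2 lower, with a median of 0.066. Leaving out samples of PD + LIF lowered this count to as few as 1.

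Of the let-7 target mRNAs, many of which encode proteins of growth and RNA stability, 4 of 8 rose with the loss of Trincr1 in PD + LIF and none fell (median 0.18), where 6.29% of all genes were higher. Hmga2, a chromatin protein, was at 4.13 and 3.72 FPKM in wild type and at 6.73 and 7.84 FPKM in Trincr1-/- ESCs (0.75, adjusted p = 0.013). Mycn, a MYC family transcription factor, was at 59.9 and 60.5 FPKM and at 80.6 and 76.4 FPKM (0.38, adjusted p = 0.0087). Of 16 alternatives, 5 left Hmga2 (up to 0.073) and 2 left Mycn (up to 0.068) above the threshold. The RNA-binding proteins Igf2bp1 (0.27, adjusted p = 0.048) and Igf2bp2 (0.18, adjusted p = 0.048) passed narrowly, and 11 and 13 of 16 alternatives left them above the threshold. Their regulation by let-7 was not measured here. The lists were chosen with earlier results of these data known, so the share of list genes called is a description only.

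Of the TRIM-NHL relatives, Trim32, a ubiquitin ligase that also binds Argonaute, was higher in Trincr1-/- ESCs in PD + LIF, at 11.2 and 11.3 FPKM against 6.38 and 6.25 FPKM (0.75, adjusted p = 0.0050 by limma), under every alternative. Trim2 was lower, at 7.11 and 6.17 FPKM against 11.1 and 9.64 FPKM (-0.58, adjusted p = 0.024), and this call was lost when any 1 of the 4 samples in PD + LIF was left out (0.058 to 0.12). Of 7 genes of microRNA processing and export, 1 was higher, Tarbp2, a partner of DICER1 (0.23, adjusted p = 0.037). Of the other Argonaute and GW182 proteins, 1 of 3 was lower, Mov10, an RNA helicase of the silencing complex (-0.21, adjusted p = 0.041). For Tarbp2 and for Mov10, 8 of 16 alternatives left the call above the threshold (up to 0.17 and 0.18). None of the 19 deadenylation and decapping genes, of the 3 genes of let-7 precursor uridylation and decay, of the 6 tested TRIM71 target mRNAs or of the 4 microRNA host genes passed between genotypes in either medium, with medians of 0.066, -0.22, -0.035 and 0.066 in PD + LIF.

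**Figure D3:**
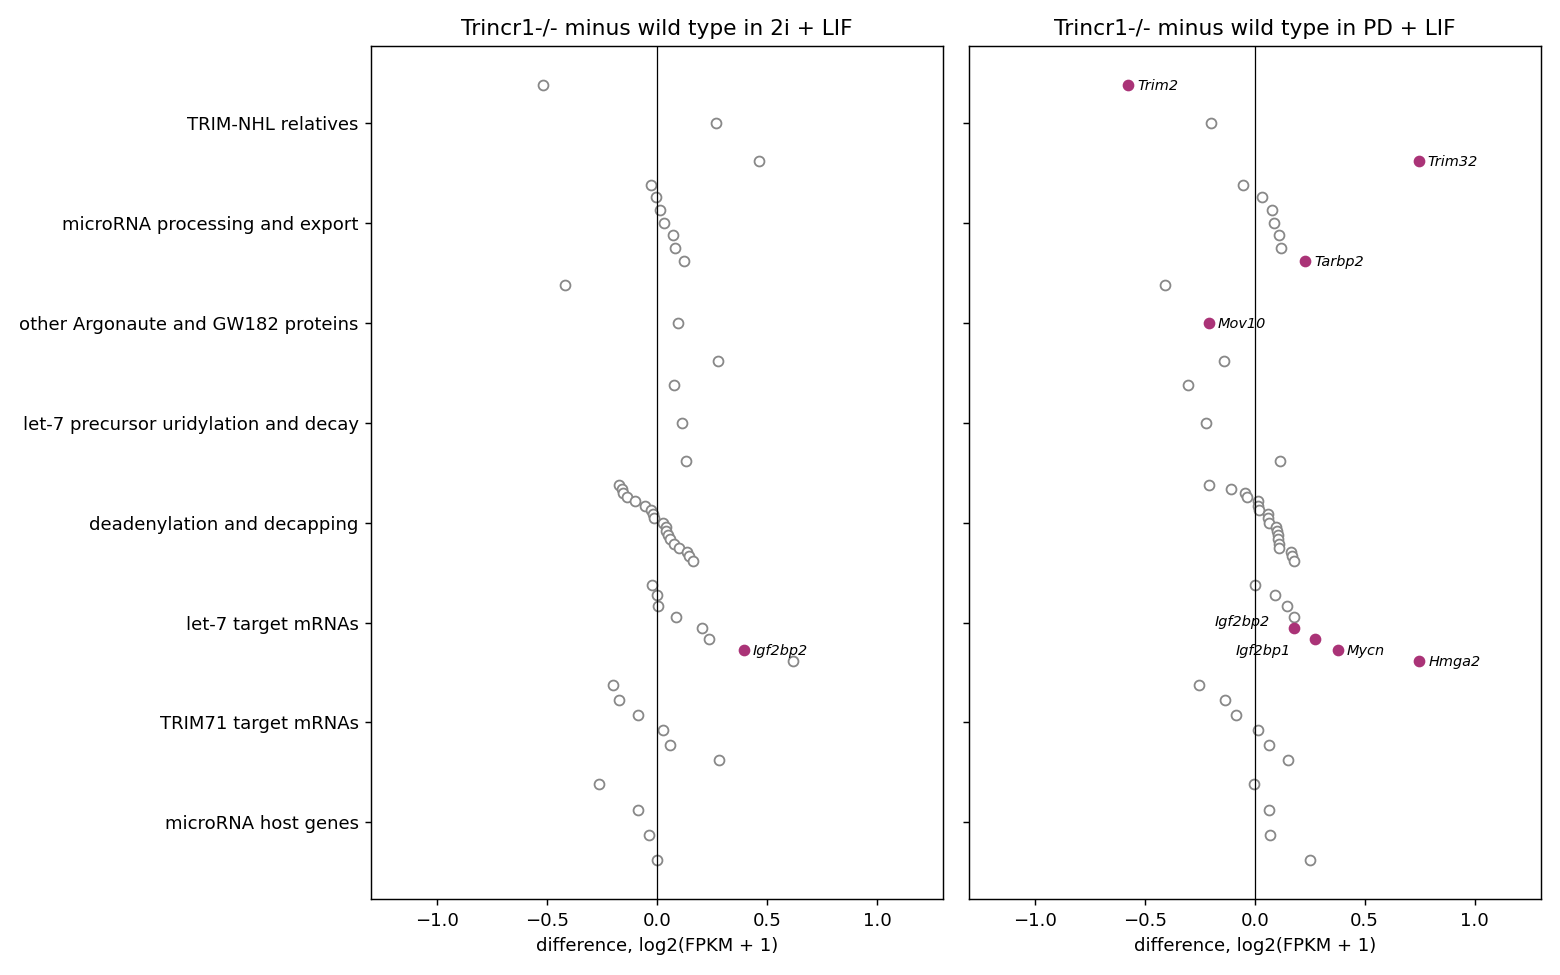
Difference in log2(FPKM + 1) between Trincr1-/- and wild-type ESCs for the 53 tested genes of 8 pathway lists, in 2i + LIF on the left and PD + LIF on the right (filled and named, adjusted p under 0.05 by limma over all genes; vertical offsets only separate points). In PD + LIF the filled points are 6 above and 2 below 0, and the 19 deadenylation and decapping genes lie between -0.21 and 0.18.

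For the change of medium, 33 of the 53 list genes were called in wild type, 14 higher and 19 lower (62.3% against 52.2% of all genes), and 34 in Trincr1-/- ESCs, 17 higher and 17 lower (64.2% against 50.0%). All 7 genes of processing and export changed in wild type, 2 higher and 5 lower. The furthest were Prkra, a second double-stranded RNA-binding partner of DICER1 (1.78 in wild type, 1.82 in Trincr1-/- ESCs), Srrt, which links capped transcripts to Microprocessor (-0.63 and -0.62), and Tarbp2 (-0.46 and -0.27), and each passed in both genotypes. Tut4, Tut7 and Dis3l2, whose proteins add U to let-7 precursors bound by LIN28 and degrade them, all rose in wild type by 0.61, 0.43 and 0.57, and Tut7 also in Trincr1-/- ESCs (0.44), where Tut4 (0.32, adjusted p = 0.067) and Dis3l2 (0.14, adjusted p = 0.26) did not pass. Their interactions did not pass either (adjusted p = 0.40 and 0.14). Mov10 (0.98 and 0.49) and Tnrc6c (0.66 and 0.42) rose in both genotypes. Of the 8 let-7 targets, 3 rose and 4 fell in wild type (median -0.075) and 3 rose and 3 fell in Trincr1-/- ESCs (median 0.057). Arid3b (0.93 and 1.02), Igf2bp2 (0.86 and 0.64) and Mycn (0.58 and 0.76) rose in both, Hmga2 (-0.57 and -0.44), Igf2bp1 (-0.30 and -0.26) and Cdc25a (-0.29 and -0.29) fell in both, and Nras fell in wild type (-0.14, adjusted p = 0.048). Of the TRIM71 targets, E2f7 (0.81 and 0.60) rose and Rbl1 (-0.46 and -0.39) fell in both, while Mbnl1 fell in Trincr1-/- ESCs (-0.36, adjusted p = 0.043), a call that 11 of 16 alternatives left above the threshold. Of the 19 deadenylation and decapping genes, 1 rose and 8 fell in wild type, and 4 rose and 7 fell in Trincr1-/- ESCs. Among those of the CCR4-NOT deadenylase complex, Cnot11 (-0.53 and -0.40), Cnot3 (-0.43 and -0.35) and Cnot10 (-0.23 and -0.38) fell in both genotypes and Cnot8 rose in both (0.48 and 0.31). Trim3 rose in both (1.09 and 0.62), Trim32 rose in Trincr1-/- ESCs (0.45, adjusted p = 0.0049), Rcl1 fell in both (-0.39 and -0.32), and Mir17hg, host of the miR-17 cluster, rose in Trincr1-/- ESCs (0.54, adjusted p = 0.00072). Of 16 alternatives, 4 left the call of Trim3 in Trincr1-/- ESCs above the threshold and 1 left that of Trim32. For Tut7 it was 2 in wild type and 1 in Trincr1-/- ESCs.

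The genes with patterns most like those of Trim71, Lin28a and Lin28b were sought among 8530 genes with a mean of at least 5 FPKM, by the root mean square difference of centred log2 values over the 8 samples. For Trim71 they were Ube2m (0.020), Donson (0.036) and Selt (0.036), where the median over all these genes was 0.22 and Trim71 itself varied by 0.099. For Lin28a they were Rab13 (0.077), Rhog (0.079) and Rcn2 (0.086; median 0.56), and Rab13 was at 3.28 and 3.44, 3.99 and 4.24, 6.70 and 6.70, and 12.1 and 10.8 FPKM in wild type and Trincr1-/- in 2i + LIF and then in PD + LIF. For Lin28b they were Lrp8 (0.10), 2810417H13Rik (0.14) and Nudt14 (0.16; median 0.72). Lrp8 was at 3.36 and 3.14 FPKM in wild type and at 2.47 and 1.73 FPKM in Trincr1-/- ESCs in 2i + LIF, and at 6.35 and 7.77 FPKM and at 8.57 and 8.28 FPKM in PD + LIF.

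The pulldown asks which of these mRNAs came down with FLAG-TRIM71. The empty-vector IP listed among the samples was not used here. RNA bound by TRIM71 and RNA held by the antibody or beads therefore cannot be told apart. The table gives 1 value for the IP and 1 for the input, where the labels list 2 samples of each and whether a value stands for 1 or both of them is not stated, so that no ratio has an error or a test, and the input was selected for poly(A) RNA while IP RNA was made into cDNA directly, so that TRIM71 binding and library preparation cannot be told apart. A transcript was called enriched where its input exceeded 2 FPKM and its IP, after scaling, exceeded 3 times that input. None of the 7 members with such an input was enriched, where 492 of 9651 transcripts (5.10%) were. Their median ratio was 0.287, which is that of Drosha, beside 0.0571 over all transcripts with such an input. Ratios differ with the input level. Among transcripts with an input within 1.5 times that of Drosha the median was 0.232, and 44.7% had a ratio as high. For Trim71 these values were 0.263 and 25.3%, and for the other members with such an input the median was 0.

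Trim71 mRNA was the most abundant of the 10 in both libraries, with 133.4 FPKM in the input and 65.5 scaled FPKM in the IP (29.2 unscaled), a ratio of 0.491. Reads of the overexpressed FLAG-Trim71 transcript and of the cells' own Trim71 mRNA cannot be told apart in such a count. Drosha followed, with 59.6 FPKM in the input and 17.1 in the IP, a ratio of 0.287. Ago2 (3.3 FPKM and 5.0, ratio 1.52) and Ago1 (2.6 FPKM and 4.0, ratio 1.54), listed in this table under their older symbols Eif2c2 and Eif2c1, were the only members above their input, and without the scaling of the IP they were below it (0.667 and 0.692). Of transcripts with an input within 1.5 times theirs, 13.4% and 12.7% had a ratio as high. Both passed the cutoff (3.02 and 3.14) when the libraries were scaled to equal means without the 100 highest transcripts, where 1076 transcripts were called.

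Lin28a, with 8.0 FPKM in the input, and Dgcr8, with 4.9 FPKM, were listed at 0 in the IP, as were 46.4% of all transcripts with an input above 2 FPKM. Among transcripts with an input within 1.5 times theirs, 57.0% and 65.1% were at 0. Dicer1 had an input of 6.1 FPKM and 0.2 in the IP. Tnrc6a (1.4 FPKM in the input, 0.3 in the IP), Tnrc6b (1.3 FPKM and 0) and Lin28b (0.9 FPKM and 0) were under the input cutoff. Values are rounded to 1 decimal and the depth of these libraries is unknown, so a value of 0 says only that the transcript was not detected.

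Of the other pathway genes, 2 of 45 with an input above 2 FPKM passed both cutoffs, a share near the 5.10% of all transcripts. They were Cnot7, a catalytic deadenylase subunit (15.6 FPKM in the input and 90.9 in the IP, ratio 5.83), and Plxnb2, a receptor listed as a TRIM71 target mRNA (44.7 FPKM and 185.3, ratio 4.15). Neither passed without the scaling of the IP. Ago3, the Argonaute next to Ago1 on chromosome 4, was singled out after its values were seen. The input held 0.8 FPKM, under the cutoff, and the IP 86.1 scaled FPKM, a ratio of 108 that ranked 13th among all transcripts. In NCBIM37 its gene (chr4:126008948-126106800) overlaps 2 annotated genes on the other strand, and 181 bases of its coding sequence have a near-identical copy elsewhere. In the RNA-seq samples Ago3 was at 1.59 to 3.69 FPKM and did not pass between genotypes (-0.42 and -0.41).

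**Figure D4:**
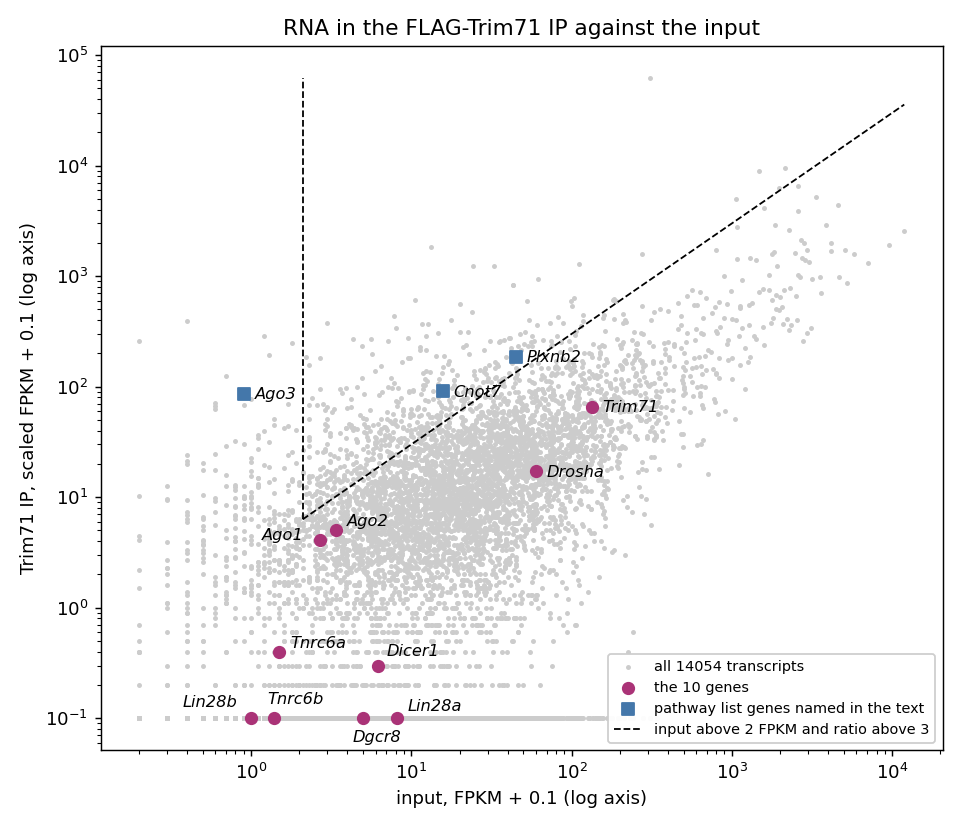
Scaled FPKM in the FLAG-Trim71 IP against FPKM in the input for all 14054 transcripts, both on log axes with 0.1 added, with the 10 genes and 3 other pathway genes marked and the area of enriched transcripts above the dashed line. Trim71 and Drosha lie inside the cloud below the line, Lin28a, Lin28b, Dgcr8 and Tnrc6b lie at 0 in the IP, and Ago3 lies left of the input cutoff.

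The input can also be set beside RNA-seq of wild-type ESCs in the same medium, as a description, since the 2 tables were normalized separately. Over 8683 genes above 2 FPKM in both, the median ratio of input to RNA-seq was 0.873 and 80% of genes lay between 0.322 and 2.19. Trim71 had 133.4 FPKM there and 32.9 FPKM in RNA-seq, a ratio of 4.05 that exceeded those of 98.1% of genes and the line of the input is not stated. Drosha lay in the middle of the cloud (0.909). Lin28a, with an input of 8.0 FPKM and 60.1 FPKM in RNA-seq, had a ratio of 0.133, above only 1.09% of genes. Ago1 (0.128), Ago2 (0.133) and Tnrc6a (0.110) were as low, and Dgcr8 was at 0.214. Genes with an input of 2 FPKM or less are left out of the set compared. Its low end is therefore cut, and a gene whose input is just above 2 FPKM ranks low by that cutoff. Tnrc6a, with an input of 1.4 FPKM, is itself outside the set. The low input values of these genes limit what their ratios of IP to input can show, and the part that the line, the library or the annotation of each table has in them was not tested.

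**Figure D5:**
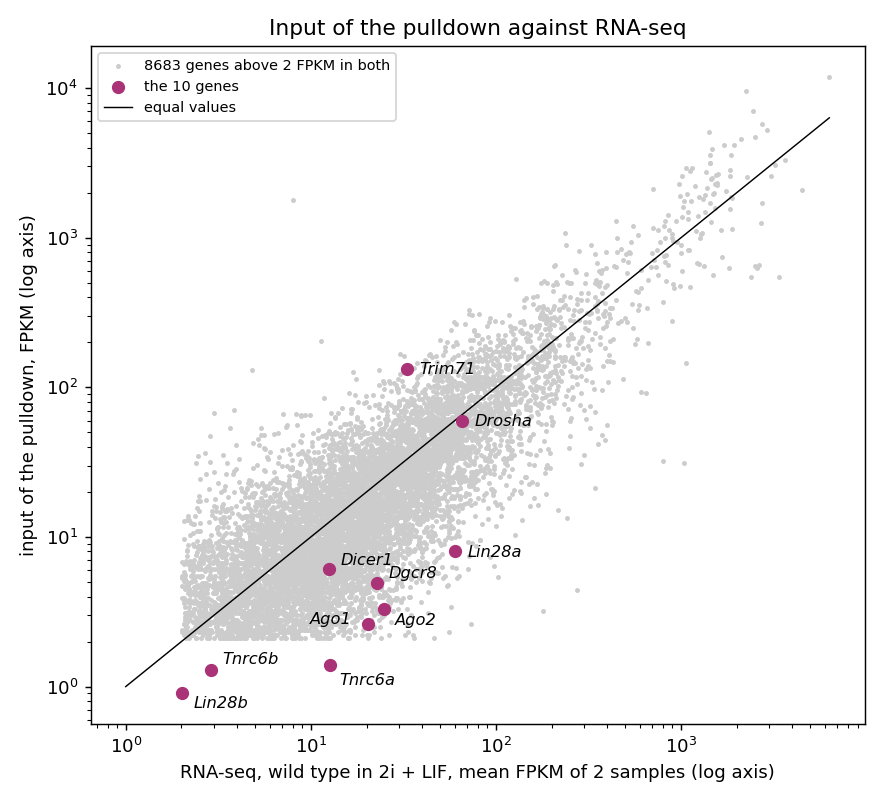
FPKM in the input of the pulldown against the mean FPKM of the 2 wild-type RNA-seq samples in 2i + LIF, on log axes, for 8683 genes and the 10 genes named (line, equal values). Trim71 lies above the line at 133.4 against 32.9 FPKM, and Lin28a, Ago1, Ago2 and Tnrc6a lie at the lower edge of the cloud or under it. The cloud holds only genes above 2 FPKM in both, which sets its lower edge.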

How the data were processed

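Poly(A) RNA of ESCs and RNA pulled down with FLAG-Trim71 were sequenced. Per the labels and the study's methods, the authors aligned reads to mm9 with STAR 2.5.0 and deposited FPKM values from Cufflinks 2.2.1. Gene coordinates of the RNA-seq table are of GRCm38. For the pulldown the authors left out reads on non-polyA transcripts and deposited 1 FPKM value for IP and input each, with a scaled signal, in which the authors multiplied the IP by 2.25, and a fold of enrichment that was not used. Of 41260 RNA-seq entries, 1 per gene identifier was kept and genes with a mean above 0.2 FPKM were tested. Log2(FPKM + 1) values were fitted with limma 3.58.1 (R 4.3.3), the 4 groups in 1 model with a variance trend, 4 residual degrees of freedom and Benjamini-Hochberg adjustment. Depth was estimated from whole-fragment steps of low FPKM values in genes with 1 annotated transcript (within 1% of a whole step). The fit was tested on simulated data. Sites were searched in GENCODE vM1 transcripts and copies with BLAST 2.17.0 in NCBIM37. Scripts used Python 3.11.15, pandas 2.3.3, numpy 2.4.6 and matplotlib 3.10.9.

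The members and gene lists were chosen with earlier results of these data known. Named are all members, list genes past the threshold between genotypes, the 3 list genes that differed most between media in each list, the 3 nearest patterns of Trim71, Lin28a and Lin28b, Gm2694, Shcbp1, and list genes enriched in the IP. Of the medium genes, mainly those that passed are printed. Of the genes listed at first, 1 is not reported here and is in no count of list genes. Ago3 in the IP was added after its values were seen. Alternatives covered the pseudocount, the filter, scaling, the variance model, the replicate block, the samples fitted and the cutoffs. The empty-vector IP was not used here.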

Additional observations from a re-analysis of the deposited data

Results flagged for a closer look

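None of the 10 genes, but 1 of the 53 tested genes of the pathway lists, had a difference between genotypes that itself differed between media by the interaction test of limma over all 15430 genes. Mov10 was at 55.6 and 52.0 FPKM in wild type and at 63.5 and 67.4 FPKM in Trincr1-/- ESCs in 2i + LIF, and at 107.3 and 106.7 FPKM and at 91.5 and 93.3 FPKM in PD + LIF, so that the order of the genotypes was opposite in the 2 media and no samples overlapped. The interaction was -0.49 ± 0.072 on the log2 scale (adjusted p = 0.030), and it was above the threshold in 11 of 15 alternatives, every one that left out a sample among them (adjusted p up to 0.12). Over all genes, 1.81% had such a difference.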

How the results depend on the processing

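Of 50 differences (10 genes in 5 comparisons), 15 were called, of which 8 kept their call and all 15 their direction under every alternative, and 28 of the other 35 were called under none. The count of members called between genotypes in 2i + LIF moved from 0 to 1 (Lin28b) with a pseudocount of 0.1 FPKM and by the fold rule, in PD + LIF from 3 to 0 by the fold rule and in the fit of that medium alone, and for the interaction from 0 to 1 (Lin28b) with a mean of at least 1 FPKM. Other pathway genes called between genotypes moved from 1 to 0 in 2i + LIF and from 8 to 4 in PD + LIF without a variance trend, to 0 and 2 in fits of 1 medium alone and to 0 and 0 by the fold rule, and for the interaction from 1 to 0 without a filter or without a trend, while a mean of at least 1 FPKM gave 2 in 2i + LIF and 2 for the interaction. In the IP, members enriched moved from 0 to 2 with equal means without the 100 highest transcripts, and other pathway genes from 2 to 5 there, to 4 with equal means or a ratio above 2, and to 0 without scaling, while all transcripts called went from 492 to 1076, 752, 765 and 156.

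Leaving out 1 sample at a time gave 1 to 3 members called between genotypes in PD + LIF, 4 to 5 for the medium in wild type, 4 to 6 in Trincr1-/- ESCs, and 0 to 0 in 2i + LIF and for the interaction. For other pathway genes it gave 0 to 1 in 2i + LIF, 1 to 7 in PD + LIF, 0 to 0 for the interaction, 28 to 33 for the medium in wild type and 26 to 33 in Trincr1-/- ESCs. All genes called between genotypes were 186 in 2i + LIF, 40 to 113 with 1 sample left out, 122 without a filter, 0 in the fit of 2i + LIF alone and 304 by the fold rule. In PD + LIF they were 1861, 335 to 764 with 1 of its samples left out, 316 in its own fit and 492 by the fold rule. For the interaction 279 became 3 to 34 with 1 sample left out, 138 without a filter and 88 without a trend. The cause of these changes was not tested.

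The replicate numbers are shared between groups, and deviations of same-numbered samples had correlations from -0.054 to 0.0063 over all tested genes. A batch that moved only some genes would not show in such a value. Whether same-numbered samples share a batch is therefore not settled by it. With the replicate number as a block, members called stayed at 3 in PD + LIF and went to 5 for the medium in both genotypes, without Tnrc6b and Tnrc6a. Other pathway genes called stayed at 1 in 2i + LIF and went to 5 in PD + LIF and 0 for the interaction, and all genes called to 111 in 2i + LIF and 39 for the interaction. The depth of the pulldown is unknown.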
